A study of Mus musculus with 6 samples.

Results

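The heterogeneous nuclear ribonucleoproteins (hnRNPs) and the numbered RNA-binding motif (RBM) proteins were followed in liver RNA of mice whose hepatocytes cannot complete coenzyme Q (CoQ) synthesis. Members were all probe sets of the array annotated to exactly 1 gene symbol that starts with Hnrnp, or with Rbm followed by a digit. The rule itself uses no measured value, but it was chosen with earlier results of these data known. The members were 58 hnRNP probe sets of 19 genes and 95 RBM probe sets of 36 gene symbols, together 153 of 45101 probe sets. The mutants were 3 B6.Alb/cre,Pdss2loxP/loxP mice aged 176, 178 and 224 days, in which cre driven by the albumin promoter removes the loxP-flanked stretch of Pdss2 from hepatocytes, so that the other cells of the liver keep the gene. The controls were 3 B6.Pdss2loxP/loxP mice aged 209, 213 and 140 days, which carry the same loxP sites and no cre. The labels give all 6 mice as male, all had been without food for 3 hours, and genotypes were housed apart, so cage and genotype cannot be told apart. Total liver RNA of each mouse was hybridized to 1 Affymetrix mouse array, on which a probe set is a group of short probes that read 1 stretch of transcript. The comparison was meant by the submitters to find pathways altered downstream of the mutation.

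Pre-mRNA is coated by hnRNPs as it leaves RNA polymerase II, and these proteins decide, together with SR proteins, which exons are kept and when an mRNA leaves the nucleus. Most carry RNA recognition motifs or, as in hnRNP K, KH domains. RBM proteins share the RNA recognition motif but not a common task, and their roles run through the spliceosome, the exon junction complex, adenosine methylation, nuclear RNA decay and ribosome assembly. In liver the best known of them is Rbm47, a partner of the enzyme that edits apolipoprotein B mRNA. Many of these genes regulate their own splicing, and probe sets of 1 gene can read different transcripts of it.

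Values are log2 expression as the authors' dChip model gave them, and every difference is mutant minus control on that scale, so that 1 is a factor of 2. A rise or fall is named only where limma, fitted over all 45037 probe sets other than the array's 64 AFFX controls, gave a Benjamini-Hochberg adjusted p under 0.05. As deposited, signs follow the sample labels. Genes of oxidative phosphorylation, which the study describes as upregulated in mutants, leaned mostly the other way here. The study scored enrichment of a KEGG gene set, an unlike measure, while here genes were chosen by the start of their symbols. The 185 probe sets of these genes had a median difference of -0.62, with 4 called higher and 1 called lower by limma. At an unadjusted p under 0.05, 13 were higher and 81 lower. That threshold was reached by 15.7% of all probe sets on the higher side and by 9.54% on the lower side. Of the 3 probe sets of Pdss2 itself, 1444085_at read 6.94, 6.88 and 7.05 in mutants 1 to 3, against 7.46, 7.47 and 7.56 in controls 1 to 3 (exact two-sided permutation test, p = 0.1, the smallest that 3 mice against 3 allow), so that the mutated gene was lower on every array labelled mutant there. The others differed by 0.40 and 0.35 with overlapping groups, and which part of the transcript each reads was not analysed here.

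The arrays differed in ways beyond these families. Probe sets of the bacterial transcripts spiked into each hybridization were all higher on mutant arrays. Their median difference was 1.70 over 14 probe sets, with a range of 1.08 to 1.82. The median of all probe sets was 6.12, 6.24 and 6.19 in mutants and 5.92, 6.03 and 6.12 in controls, so that the median difference of all probe sets was 0.17. The 3′ minus 5′ signal of Gapdh, read as a sign of RNA quality, was 0.45, -1.06 and -1.78 in mutants 1 to 3, against 2.31, 2.02 and 2.30 in controls 1 to 3, while that of Actb was 2.60, 3.95 and 4.50 in mutants and 3.82, 3.90 and 3.11 in controls. Hepatocyte markers were bright, with albumin at a mean of 13.75 in mutants and 14.00 in controls, and the median difference of their 24 probe sets was -0.30. The markers of sinusoidal endothelium had a median of 0.30 over 25 probe sets. Of these, limma called 2 higher (8.0%, against 1.25% of all probe sets) and 0 lower (against 0.746%). Mutants lay wholly above controls on 10 of them (40.0%, against 21.2% of all). Kupffer cell and bile duct markers had medians of 0.56 and 0.58 with 0 called in either direction by limma. At an unadjusted p under 0.05, 10 of 25 endothelial, 5 of 15 Kupffer cell and 4 of 9 bile duct probe sets were higher. In each of these lists 0 were lower. That threshold was reached by 15.7% of all probe sets on the higher side and by 9.54% on the lower side. In bulk liver, fewer cells of a type and less RNA per cell cannot be told apart. The part of the spike-in difference, of RNA quality or of other cells in the results below was not tested.

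Of the 58 hnRNP probe sets, 2 fell in mutants and 0 rose at an adjusted p under 0.05 from limma, against 1.99% of all probe sets called in either direction, 0.746% lower and 1.25% higher. They belong to Hnrnpa2b1 and Hnrnpab, both of the A/B class of hnRNPs. At an unadjusted p under 0.05, 23 were lower (39.7%, against 9.54% of all probe sets) and 4 higher (6.90%, against 15.7%). The differences leaned to the lower side: 43 of 58 differences were negative, against 34.8% of all probe sets, and the median difference was -0.45, against 0.17 over all. Each mutant lay below each control on 21 probe sets (36.2%, against 10.7% of all probe sets) and above each control on 6 (10.3%, against 21.2%). The family median was -0.49 once arrays were quantile normalized and -0.61 once each was centred, where the median of all probe sets was 0.040 and 0.012. Relative to all probe sets the family stood at -0.62 as deposited, a distance that centring cannot change, and at -0.53 after quantile normalization. Among probe sets at or above the median level of the array the family median was -0.57, against 0.09 for all such probe sets.

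Of the 95 RBM probe sets, 3 rose and 2 fell. Together these are 5.26%, against 1.99% of all probe sets called in either direction, 1.25% higher and 0.746% lower. An unadjusted p under 0.05 was reached by 16 in each direction (16.8%), against 15.7% of all probe sets higher and 9.54% lower. The risen ones read Rbm25, Rbm26 and Rbm5, and the fallen ones Rbm45 and Rbm8a. In the RBM family 42 differences were negative and 53 positive, with a median of 0.03 that was -0.04 after quantile normalization and -0.13 after centring. Relative to all probe sets that median stood at -0.14 as deposited and at -0.08 after quantile normalization. Mutants lay wholly above controls on 20 probe sets (21.1%) and wholly below on 12 (12.6%), both near the shares of all probe sets. The middle of the RBM differences, from the lower quartile of -0.40 to the upper one of 0.47, was wider than that of all probe sets (-0.16 to 0.44). It was near that of all probe sets at or above the median level of the array (-0.38 to 0.44). The 57 RBM probe sets at that level had quartiles of -0.52 and 0.51. Limma called 8.77% of these 57, against 3.39% of all probe sets at that level.

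**Figure D1:**
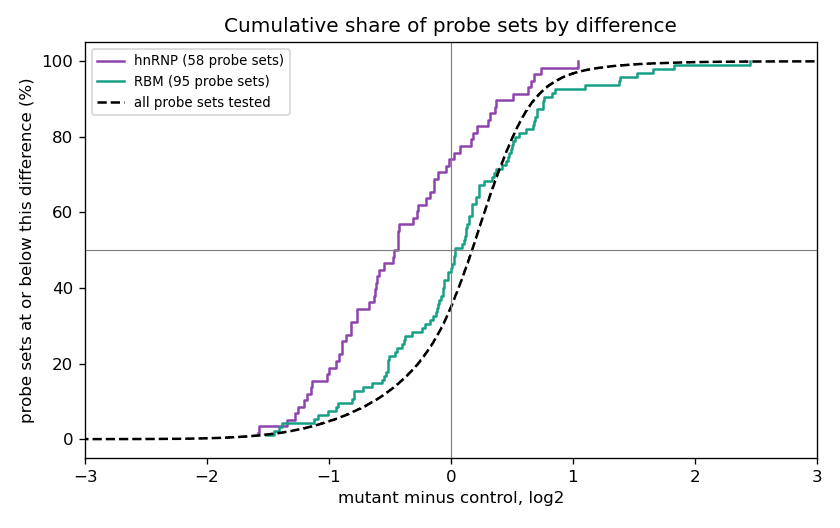
Share of probe sets (vertical axis, percent) whose mutant minus control difference (horizontal axis, log2) is at or below each value, for the hnRNP family (purple), the RBM family (green) and all probe sets tested (dashed black). The hnRNP curve lies to the left of the curve of all probe sets and crosses 50% at -0.45, while the RBM curve crosses near 0.03. The RBM quartiles are -0.40 and 0.47, against -0.16 and 0.44 for all probe sets.

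Upstream regions of 3 genes with a called probe set are shown, each before an annotated start of the gene. Whether the transcripts read by the called probe sets start there was not analysed. The 3 are those called genes whose RefSeq (GRCm38.p6) start has at least 150 bases before it that lie in no annotated gene. Of the 7 called genes, Rbm8a had no upstream window to which this rule could be applied. Capitals mark CCAAT and GGGCGG boxes, which bind general activators of many housekeeping genes, and the ETS-type core CGGAAG, on either strand.
Hnrnpab (chr11:51606882-51607131, minus strand): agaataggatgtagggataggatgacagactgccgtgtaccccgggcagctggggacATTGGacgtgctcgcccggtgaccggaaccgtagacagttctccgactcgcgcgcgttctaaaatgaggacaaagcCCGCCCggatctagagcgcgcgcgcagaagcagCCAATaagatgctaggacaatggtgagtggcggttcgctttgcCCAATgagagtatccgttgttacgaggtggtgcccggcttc
Rbm5 (chr9:107771008-107771252, minus strand): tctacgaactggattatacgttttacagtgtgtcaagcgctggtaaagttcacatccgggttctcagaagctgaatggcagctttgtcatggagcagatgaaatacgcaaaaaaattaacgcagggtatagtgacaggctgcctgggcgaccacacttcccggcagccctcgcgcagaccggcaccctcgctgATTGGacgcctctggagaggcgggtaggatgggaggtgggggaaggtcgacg
Rbm45 (chr2:76369734-76369958, plus strand): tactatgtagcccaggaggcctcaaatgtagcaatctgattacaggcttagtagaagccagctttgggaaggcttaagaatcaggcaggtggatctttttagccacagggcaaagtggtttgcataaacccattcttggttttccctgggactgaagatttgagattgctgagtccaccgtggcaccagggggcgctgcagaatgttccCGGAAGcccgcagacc

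Hnrnpab held 3 CCAAT boxes and 1 GGGCGG box in this stretch, Rbm5 1 CCAAT box, and Rbm45 1 CGGAAG core. Over the 250 bases before each RefSeq start, 26 windows of 17 hnRNP genes and 33 windows of 29 RBM symbols could be searched beside 32851 windows of all genes. GGGCGG, on either strand, was found in 73.1% of hnRNP windows, 30.3% of RBM windows and 32.7% of all. CCAAT was found in 61.5%, 36.4% and 33.8%, CGGAAG in 30.8%, 30.3% and 13.6%, and TATAAA in 3.85%, 9.09% and 12.4% in the same order. These motifs do not overlap each other in the stretches printed. The hnRNP windows were also richer in G and C (median 64.8%) than all windows (52.4%), and windows of 1 gene can overlap, so the shares are given as a description with no test.

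**Figure D2:**
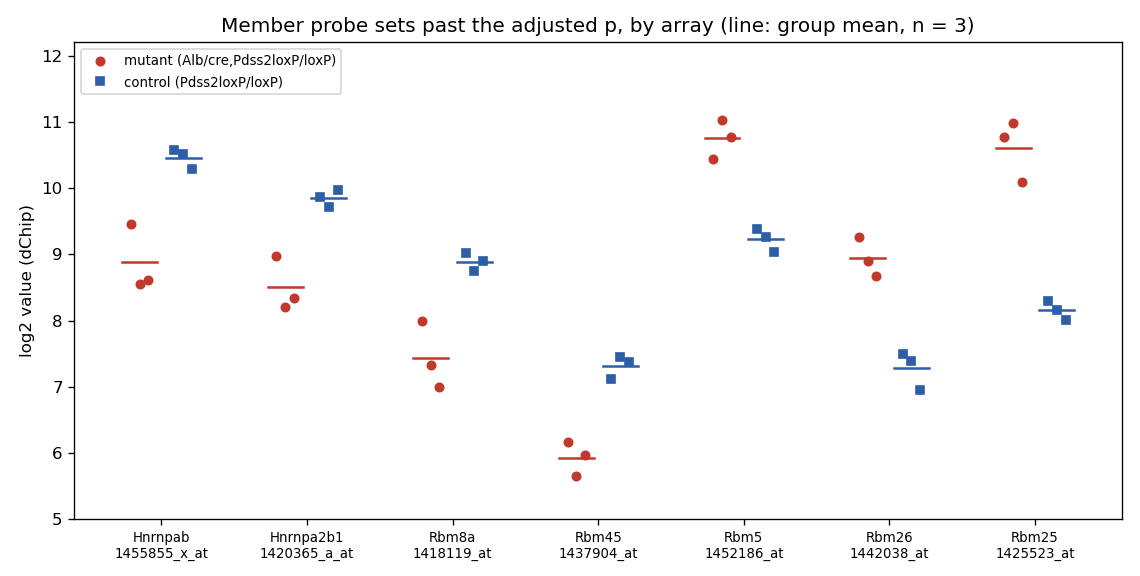
Log2 value (vertical axis) in each mutant (red circles) and control (blue squares) of the 7 member probe sets called by limma (horizontal axis), and the mean of each group as a line (n = 3). On each probe set the groups do not overlap, with Rbm25, Rbm26 and Rbm5 higher and the other 4 lower in mutants.

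Among the A/B and D class, which holds the most abundant core proteins of hnRNP particles, 2 of 25 probe sets fell and 0 rose. Thus 8.0% of the class were called, against 1.99% of all probe sets, and the median difference was -0.43. Hnrnpa2b1 encodes A2/B1, which binds methylated adenosine and sorts RNAs for transport. On probe set 1420365_a_at it read 8.98, 8.21 and 8.35 in mutants 1 to 3, against 9.86, 9.72 and 9.97 in controls 1 to 3. It fell by 1.34 on the log2 scale (standard error, SE, 0.25 and adjusted p = 0.047 by limma, 3 mice a group), leaving mutants with 39.5% of the control level. Mutant 1 was the highest of the mutants and still lay below every control. The other 3 probe sets of the gene differed by -1.28, -1.21 and -0.997 (adjusted p = 0.08, 0.068 and 0.165 from limma). On 1433829_a_at the values were 8.88, 7.78 and 9.10 in mutants and 9.96, 9.89 and 9.74 in controls, and on 1434047_x_at they were 8.49, 7.56 and 8.60 in mutants and 9.53, 9.38 and 9.36 in controls. The groups overlapped only on 1433830_at, where mutant 3 read 9.40 and control 3 read 9.30. The 4 probe sets of Hnrnpa2b1 thus leaned the same way.

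Hnrnpab, an A/B-type protein that has been described as a partner of the apolipoprotein B editing enzyme, was read by 7 probe sets that did not run together. On 1455855_x_at it read 9.47, 8.56 and 8.61 in mutants and 10.58, 10.52 and 10.28 in controls and fell by 1.58 (SE 0.28 and adjusted p = 0.046 by limma, 3 mice a group), which left 33.4% of the control level. On 1415914_at it read 8.91, 7.47 and 7.38 in mutants and 9.13, 9.08 and 9.30 in controls (difference -1.25, adjusted p = 0.111 from limma). On both, mutants lay below controls, and mutant 1 was again closest to them. On 1426114_at the order was the opposite, at 13.47, 13.65 and 13.58 in mutants and 13.01, 12.99 and 12.66 in controls (difference 0.68, adjusted p = 0.091 from limma). The dim 1459880_at also had all mutants above all controls (0.51), and the remaining probe sets differed by -0.43, -0.20 and 0.07 with overlapping groups. Probe set names that end in _x_at mark probes that can also bind other sequences, and Affymetrix gave the called Hnrnpab probe set such a name.

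Hnrnpdl, the D-like protein, had the uncalled hnRNP probe set with the largest difference. Its 1424252_at read 6.72, 6.78 and 8.19 in mutants and 9.05, 8.77 and 8.59 in controls (difference -1.58, adjusted p = 0.072 from limma), with mutant 3 near the controls and mutants 1 and 2 far below. The other 6 probe sets of Hnrnpdl ran from -0.89 to 0.37, and 2 of them were positive. Hnrnpd, the AU-rich element binding protein AUF1, read 8.38, 7.38 and 7.70 in mutants and 8.96, 9.02 and 8.89 in controls on 1425142_a_at (difference -1.14, adjusted p = 0.067 from limma), and its 2 dim probe sets differed by -0.04 and -0.02. Hnrnpa0 had 1 probe set, at 6.92, 6.54 and 6.19 in mutants and 7.34, 7.18 and 7.58 in controls (-0.82, adjusted p = 0.098 from limma). Hnrnpa1, the classical repressor of exon inclusion, gave no single direction: 1455740_at differed by -0.82, and 1436549_a_at and 1455305_x_at by 0.18 and 0.17. Hnrnpa1 has many processed copies in the genome that its probes may also read.

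In the F/H class, whose members bind runs of G, limma called 0 of 8 probe sets, against 1.99% of all. An unadjusted p under 0.05 was reached by 3 lower ones (37.5%, against 9.54% of all) and 0 higher ones (against 15.7%). Hnrnph2, read by 1 probe set, was at 7.69, 6.89 and 7.31 in mutants and 8.29, 8.08 and 8.28 in controls (-0.92, adjusted p = 0.078 from limma). Hnrnpf differed by -1.18 and -1.02 on its 2 _x_at probe sets, and on 1456664_x_at, the larger of these, the values were 9.73, 8.70 and 8.57 in mutants, against 10.21, 10.35 and 9.97 in controls. It differed by -0.31 and 0.02 on the others. Hnrnph1 differed by -0.68 and -0.14 and Hnrnph3 by 0.32, all with overlapping groups.

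The 4 probe sets of Hnrnpk, a KH-domain protein that binds C-rich RNA and DNA, differed by -0.63, -0.47, -0.43 and -0.17, with 0 called, although 2 lower ones had an unadjusted p under 0.05. Only 1460547_a_at separated the groups, at 10.07, 10.22 and 9.90 in mutants and 10.56, 10.54 and 10.49 in controls. In Hnrnpk mutant 1 stood with the controls on 1423684_at, at 9.38 against 8.69 and 8.64 in mutants 2 and 3, while controls were at 9.37 to 9.65.

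The U class holds hnRNP U, a scaffold protein that ties RNA to chromatin, and its 2 relatives. It had the lowest class median, -0.70 over 8 probe sets, with 0 called by limma, although 4 lower ones and 1 higher one had an unadjusted p under 0.05. Hnrnpu on 1423051_at read 8.96, 8.27 and 8.32 in mutants and 9.31, 9.31 and 9.25 in controls (difference -0.77, adjusted p = 0.101 from limma). On 1450849_at the order was the reverse, at 8.53, 8.28 and 7.96 in mutants and 7.61, 7.26 and 7.70 in controls (0.74, adjusted p = 0.106 from limma). The other 3 differed by -0.94, -0.86 and -0.62. Hnrnpul1 read 8.88, 8.19 and 8.28 in mutants and 9.40, 9.44 and 9.17 in controls (-0.89, adjusted p = 0.08 from limma), and Hnrnpul2 differed by -0.59 and -0.27.

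Of the remaining hnRNPs, Hnrnpm, a regulator of exon choice, was at 8.13, 7.97 and 7.77 in mutants and 8.78, 8.78 and 8.62 in controls (-0.77, adjusted p = 0.071 from limma). Hnrnpl, which binds CA repeats, was split, with 1445594_at at 7.33, 6.68 and 7.59 in mutants and 6.11, 6.40 and 5.98 in controls (1.04, adjusted p = 0.078 from limma) and 1424101_at at -0.63 (adjusted p = 0.111 from limma). Both of its probe sets separated the groups, in opposite directions. The 5 probe sets of Hnrnpr ranged from -1.15 to 0.66. Those of Hnrnpc, whose product binds runs of U and keeps cryptic exons out, ranged from -0.55 to 0.63 and all overlapped, and the 2 of Hnrnpll differed by -0.28 and -0.14.

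**Figure D3:**
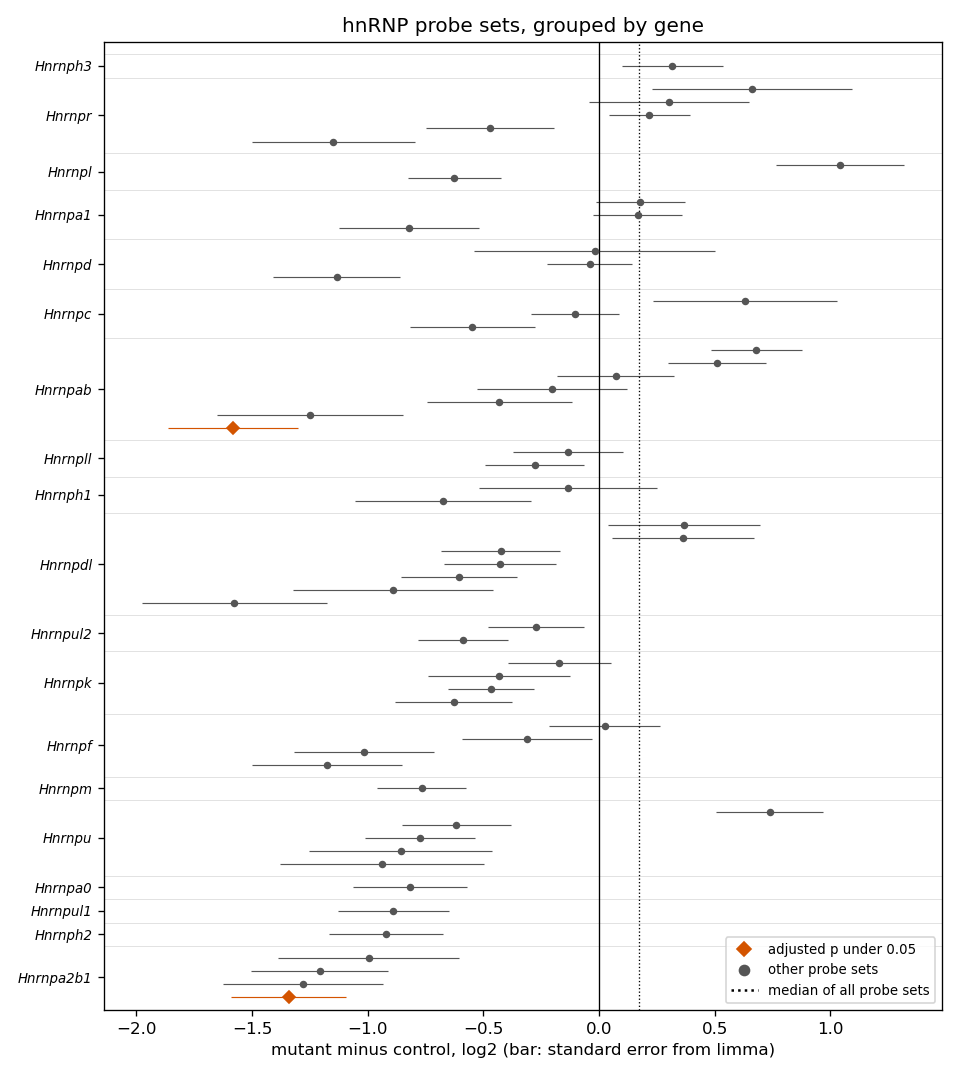
Mutant minus control difference (horizontal axis, log2) of each of the 58 hnRNP probe sets, grouped by gene (vertical axis, sorted by the gene's median), with bars for limma's standard error (n = 3 per group). The 2 called probe sets are orange diamonds, the dotted line marks the median of all probe sets at 0.17, and 43 of the 58 points lie below 0.

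Per mouse, the median deviation of the hnRNP probe sets from their own means over the 6 arrays was -0.03, -0.42 and -0.12 in mutants 1 to 3, against 0.36, 0.23 and 0.12 in controls 1 to 3. All 3 mutants lay below all 3 controls, and mutant 1 was closest to them. Oxidative phosphorylation probe sets stood at 0.13, -0.36 and -0.76 in mutants and 0.29, 0.32 and 0.38 in controls, and all probe sets at 0.03, 0.13 and 0.07 in mutants and -0.16, -0.07 and 0.01 in controls. Mutant 3 was the lowest in oxidative phosphorylation and mutant 2 in the hnRNP family. The family median difference was -0.52, -0.44 and -0.50 without mutant 1, 2 and 3 in turn, and -0.39, -0.49 and -0.55 without control 1, 2 and 3.

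**Figure D4:**
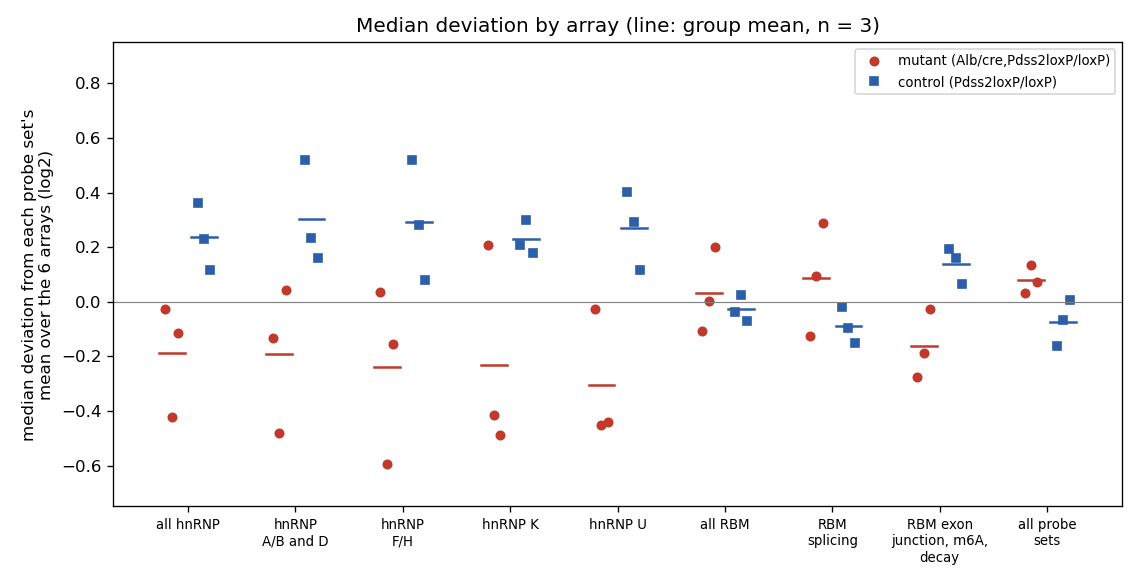
Median deviation (vertical axis, log2) of the probe sets named on the horizontal axis from their own means across the 6 arrays, for every mutant (red circles) and control (blue squares), and the mean of each group as a line (n = 3). For all hnRNP probe sets the 3 mutants lie between -0.42 and -0.03, all below the controls (0.12 to 0.36), and for all RBM probe sets the groups overlap.

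Among RBM proteins of splicing, 2 of 46 probe sets rose and 0 fell (4.35% called, against 1.99% of all). Their median difference was 0.11. Rbm25, which works with the U1 snRNP at 5′ splice sites, had the largest difference of either family. On 1425523_at it read 10.77, 10.99 and 10.09 in mutants 1 to 3, against 8.30, 8.16 and 8.01 in controls 1 to 3. It rose by 2.46 (SE 0.27 and adjusted p = 0.026 by limma, 3 mice a group), a 5.49-fold change. The other 5 probe sets of Rbm25 did not share it. They differed by -0.53, -0.44, -0.23, 0.03 and 0.12 with overlapping groups. On 1428907_at, for example, the values were 7.39, 7.57 and 8.25 in mutants and 8.40, 8.38 and 8.03 in controls.

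Rbm5, a regulator of 3′ splice site pairing from a region often lost in lung cancer, leaned one way on all 5 of its probe sets. On 1452186_at it read 10.45, 11.03 and 10.78 in mutants and 9.39, 9.26 and 9.04 in controls and rose by 1.52 (SE 0.23 and adjusted p = 0.034 by limma, 3 mice a group), a 2.87-fold change. The others differed by 0.86, 0.76, 0.69 and 0.47, and 1452187_at, at 7.84, 7.35 and 7.44 in mutants and 6.74, 6.83 and 6.50 in controls (adjusted p = 0.072 from limma), also separated the groups. Its close relative Rbm6 was at 9.97, 11.31 and 10.98 in mutants and 8.92, 9.13 and 10.07 in controls on 1452466_a_at (1.38, adjusted p = 0.102 from limma), where mutant 1 lay below control 3, and at 0.00 and -0.06 on the others.

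Rbm39, a U2AF-related splicing factor, was read by 12 probe sets, the most of any member, and they spread from -1.52 to 1.83 with 0 called. On 1442745_x_at it was at 10.13, 11.21 and 11.39 in mutants and 9.37, 9.37 and 8.51 in controls (1.83, adjusted p = 0.056 from limma), and on 1438420_at at 10.77, 11.57 and 11.73 in mutants and 10.28, 10.19 and 9.43 in controls (1.39, adjusted p = 0.068 from limma). Both had every mutant above every control. On 1456386_at it was at 5.20, 4.88 and 6.88 in mutants and 7.27, 7.38 and 6.87 in controls (-1.52, adjusted p = 0.113 from limma). Mutant 3 there matched control 3. The groups separated the other way on 1438397_a_at (-0.80) and 1426671_a_at (-0.52). In all, 3 of the 12 probe sets lay wholly above the controls, with 1420982_at (0.21) the smallest, and 2 lay wholly below.

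Rbm42 showed a like split, with 1415739_at at 7.56, 7.46 and 6.76 in mutants and 8.28, 8.28 and 8.47 in controls (-1.09, adjusted p = 0.064 from limma) and its other 2 probe sets at 0.68 and 0.48, all 3 without overlap. Rbm20, which controls splicing of titin in heart, was dim in liver at 5.47, 5.51 and 5.75 in mutants and 5.36, 5.14 and 4.97 in controls (0.42, adjusted p = 0.239 from limma). Rbm22, a protein of the catalytic spliceosome, and Rbm11 differed by 0.36 and 0.71 with no overlap, and Rbm17, a factor of 3′ splice sites, by -0.40 and 0.09. Rbm48 and Rbm41, which act in the minor spliceosome, differed by -0.79 and by -0.21 and 0.01. The 5 probe sets of the muscle factor Rbm24 lay between -0.05 and 0.52, the 3 of Rbm4b between -0.32 and 0.17, and Rbm38 differed by 0.15. None of these passed limma's test.

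In the group of exon junction, adenosine methylation and nuclear RNA decay, 1 of 17 probe sets rose and 1 fell. Thus 11.8% were called, against 1.99% of all probe sets, and the median difference was -0.38. Rbm8a encodes Y14, a core protein of the exon junction complex that marks spliced mRNA. On 1418119_at it read 7.99, 7.32 and 7.002 in mutants and 9.02, 8.75 and 8.90 in controls and fell by 1.45 (SE 0.28 and adjusted p = 0.049 by limma, 3 mice a group), which left 36.6% of the control level. Its other probe set differed by -0.38. Rbm26, a zinc finger protein linked in human cells to decay of polyadenylated nuclear RNA, rose on 1442038_at, at 9.26, 8.90 and 8.67 in mutants and 7.50, 7.39 and 6.96 in controls (1.66, SE 0.24 and adjusted p = 0.034 by limma, 3 mice a group). On 1426803_at it was at 6.39, 6.34 and 7.04 in mutants and 7.84, 7.94 and 7.37 in controls, a difference of the opposite sign (-1.13, adjusted p = 0.066 from limma). The groups did not overlap on either probe set, and they overlapped on the other 2 (0.23 and -0.12).

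Its relative Rbm27 differed by -0.56, -0.46 and -0.07. Rbm15 and Rbm15b, adaptors of the adenosine methyltransferase, did not share a sign: Rbm15 differed by -0.39, and the 3 probe sets of Rbm15b by 0.76, 0.70 and 0.23. Rbm15b on 1454798_at was at 7.23, 7.23 and 7.22 in mutants and 6.34, 6.21 and 6.85 in controls (adjusted p = 0.094 from limma). Rbm33, an adaptor for removal of the methyl mark in human cells, differed by -0.55, -0.51 and -0.17, and Rbm7, of the nuclear exosome targeting complex, by -0.52 with mutants wholly below controls.

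Of the 29 probe sets of the other RBM proteins, 1 fell and 0 rose (3.45% called, against 1.99% of all), with a median of 0.12. Rbm45, an RNA-binding protein of neuronal development that is found in inclusions in motor neuron disease, has 1 probe set. It read 6.17, 5.65 and 5.97 in mutants and 7.12, 7.46 and 7.38 in controls and fell by 1.39 (SE 0.22 and adjusted p = 0.036 by limma, 3 mice a group), which left 38.2% of the control level. Rbm28, a nucleolar protein of ribosome assembly, was at 9.36, 10.07 and 9.74 in mutants and 8.56, 8.62 and 8.70 in controls on 1452091_a_at (1.10, adjusted p = 0.054 from limma) and differed by 0.14 on its other probe set. The nucleolar proteins Rbm19 and Rbm34 differed by -0.10 and by 0.49 and 0.27.

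Rbm47, the editing partner named above, was read in 3 ways. On 1423411_at it was at 9.15, 9.57 and 10.10 in mutants and 9.80, 9.94 and 9.32 in controls (-0.08, adjusted p = 0.897 from limma), on 1438021_at it was at 7.15, 7.01 and 7.77 in mutants and 8.52, 8.26 and 7.94 in controls (-0.93, adjusted p = 0.092 from limma), and on the dim 1423412_at it differed by 0.67. The paraspeckle protein Rbm14 had 2 of 5 probe sets wholly below the controls (-0.82 and -0.65) and 1 wholly above (0.75). Rbm12b2 had the third largest uncalled difference of the family, at 4.13, 3.28 and 5.36 in mutants and 6.05, 6.01 and 4.93 in controls on 1436843_at (-1.41, adjusted p = 0.155 from limma). Its paralog Rbm12b1 differed by -0.52 and 0.56, and Rbm12 by -0.72, 0.18 and 0.23. Rbm18 differed by 0.03 to 0.33, Rbm43 by 0.12, and Rbm44 and the germ cell gene Rbm46 by 0.03 to 0.61. The 3 probe sets of the antisense genes Rbm46os and Rbm3os, which the rule takes in with the family, differed by 0.83, 0.37 and -0.12.

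**Figure D5:**
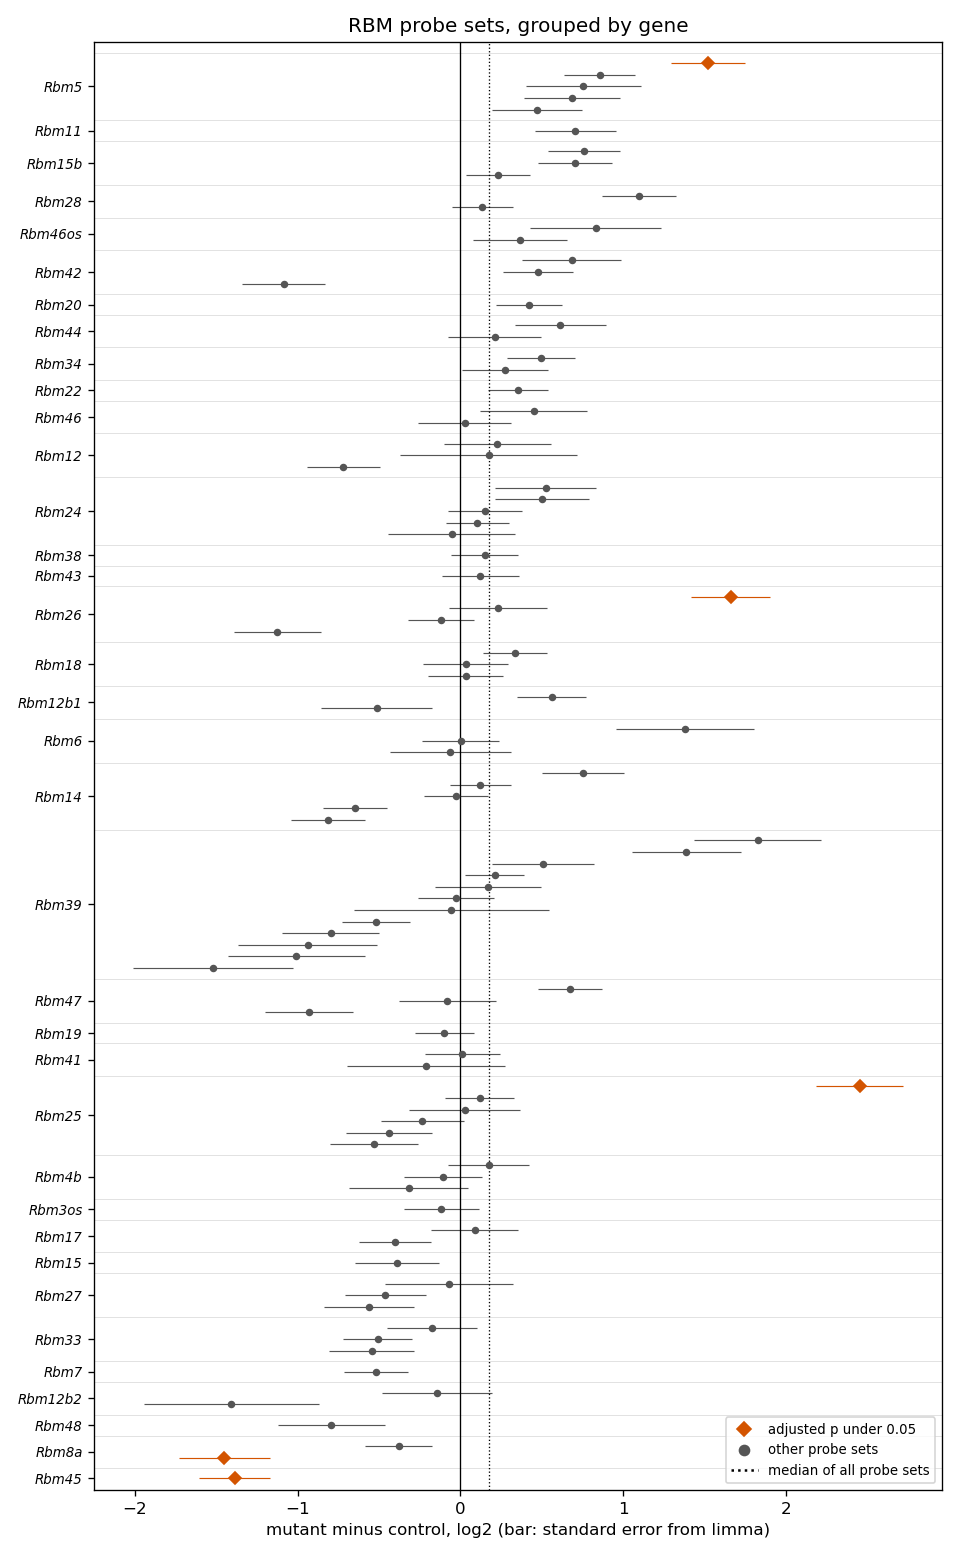
Mutant minus control difference (horizontal axis, log2) of each of the 95 RBM probe sets, grouped by gene (vertical axis, sorted by the gene's median), with bars for limma's standard error (n = 3 per group). The 5 called probe sets are orange diamonds, the dotted line marks the median of all probe sets at 0.17, and probe sets of Rbm39, Rbm26 and Rbm42 lie on both sides of 0.

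Disagreement within a gene occurred in both families. The same counts were not made over all genes, so they set neither family apart. Of 14 hnRNP genes with more than 1 probe set, 8 had differences of both signs, 6 had only negative ones and 0 had only positive ones. Of 25 such RBM symbols, 13 had both signs, 4 only negative and 8 only positive ones. In 5 hnRNP genes (Hnrnpa1, Hnrnpab, Hnrnpl, Hnrnpr and Hnrnpu) and in 5 RBM genes (Rbm14, Rbm26, Rbm39, Rbm42 and Rbm47) 1 probe set lay wholly above the controls while another lay wholly below. The median distance between the highest and the lowest difference of a gene was 1.15 in the hnRNP family and 0.95 in the RBM family. Where in its transcript each probe set lies was not analysed here.

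The 7 calls depended on which mice were kept. Without mutant 1 all 7 passed, and 10 of 58 hnRNP probe sets (all lower) and 10 of 95 RBM probe sets were called. Of all 45037 probe sets 3840 were called then, 1289 higher and 2551 lower. The members called there included Hnrnpu, Hnrnpd and Hnrnpf (lower) and Rbm39 on both of its high probe sets (higher). Without mutant 2, mutant 3, control 1, control 2 or control 3, 0 members were called by limma, when 19 to 26 hnRNP and 20 to 36 RBM probe sets had an unadjusted p under 0.05, and of all 45037 probe sets 0 to 3 were called. The signs of the 7 differences were kept in each case. Without mutant 2 and control 3 together, chosen after the data were seen because these arrays deviated together, 0 were called, with 20 and 33 at an unadjusted p under 0.05. For fits without some mice, unadjusted counts over all probe sets are not given here, so the member counts cannot be set against them. With arrays centred on their medians only Rbm25 and Rbm45 passed, and after quantile normalization all but Hnrnpa2b1 and Rbm8a did. Without _x_at and _s_at probe sets, which removes the called one of Hnrnpab, Hnrnpa2b1 (adjusted p = 0.051) and Rbm8a (0.052) no longer passed.

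The other proteins that share these tasks were examined as a list of 37 genes, of which 35 were measured on 112 probe sets. Among these probe sets 1 rose and 0 fell (0.893% called, against 1.99% of all). The risen one reads Mbnl1, a regulator of developmental splicing, at 8.36, 8.81 and 7.99 in mutants and 7.13, 7.11 and 7.02 in controls (1.30, adjusted p = 0.048 from limma). The list had a median difference of -0.07, and -0.25 relative to all probe sets, and 54.5% of its differences were negative, against 34.8% of all. Mutants lay wholly above controls on 22 probe sets (19.6%, against 21.2% of all) and wholly below on 23 (20.5%, against 10.7%). An unadjusted p under 0.05 was reached by 17 higher ones (15.2%, against 15.7% of all) and 22 lower ones (19.6%, against 9.54%). The list median turned to 0.02 without mutant 2. Mbnl1 did not pass once arrays were centred, once _x_at and _s_at probe sets were left out, or without any 1 of mutant 2, mutant 3, control 1, control 2 and control 3.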

How the data were processed

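Liver RNA of 3 mutants and 3 controls was measured on 1 array each, and groups were taken from the sample titles. Probe-level data had been normalized and summarized by the authors in dChip with its perfect-match-only model, and the deposited log2 values, 1 per probe set and array, were used without further scaling. They ran from 0.00 to 14.63, with no value of 0 among the members. For dChip, version and baseline array were not given in the sources used here. Precision is limited by 3 arrays a group, and the labels do not say whether mice were littermates. Although the methods mention a C. elegans array, the probe sets carry mouse array names.

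Symbols came from GEO's platform annotation: 34945 probe sets carried 1 symbol, 932 several and 9160 none. Of those with several, 17 name a member beside other genes and were set aside, so Rbm3, Rbm4, Rbm10 and Hnrnpa3 have no member probe set. One model (limma 3.58.1 under R 4.3.3, lmFit then eBayes, checked on simulated data) was fitted over 45037 probe sets. Single measurements were compared by exact permutation over the 20 assignments of 3 mice against 3. Values per array were given for called probe sets and for the 3 largest uncalled differences of each family, and values per array or differences alone for other probe sets of the called genes and for well-known members. Probe sets outside this rule were named after their values were seen. Members, gene lists and roles were chosen with earlier results of these data known.

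Replicate numbers did not pair the mice (correlations of deviations in the closing section). The alternatives were quantile normalization, median centring, a filter on level, trended and robust eBayes, age as a covariate, the replicate number as a block, no _x_at or _s_at probe sets, the probe set of highest mean for each gene, and leaving out each mouse. Figures were drawn with matplotlib 3.10.9.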

Additional observations from a re-analysis of the deposited data

Results flagged for a closer look

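Among probe sets set aside because they carry several symbols, 2 of those annotated to both Gm15455 and Rbm10 had every mutant above every control. Rbm10 is a splicing regulator related to Rbm5. On 1423740_a_at the values were 9.35, 9.61 and 9.04 in mutants and 8.57, 8.66 and 7.94 in controls (difference 0.94, adjusted p = 0.087 from limma), and on 1423741_at they were 8.09, 8.34 and 8.29 in mutants and 7.81, 7.70 and 7.77 in controls (0.48, adjusted p = 0.157 from limma). On 1423742_at the groups overlapped (0.17). Set-aside probe sets of Hnrnpa3 leaned the other way. Mutants lay wholly below controls on 1428262_s_at, 1452712_at and 1451184_at (-1.05, -0.999 and -0.75, adjusted p = 0.073, 0.061 and 0.14 from limma). The groups overlapped on 1452774_at (-0.24). Those of Hnrnpa1 differed by -0.49 and -0.35, with mutants wholly below controls, and by -0.04. Those of Rbm3 differed by -0.84 and -0.26 with overlapping groups. The probe sets read from the bacterial transcripts that are spiked into each hybridization, which no comparison used, were all higher on mutant arrays, with differences of 1.08 to 1.82 and a median of 1.70 over 14 probe sets.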

How the results depend on the processing

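The hnRNP median kept its sign under every alternative run and lay between -0.62, with the probe set of highest mean of each gene, and -0.39, without control 1, against -0.45 as reported. Its spread between mice was 0.21 in mutants and 0.12 in controls (SD, n = 3 each). The RBM median was -0.13 after centring, that of the related proteins was -0.23 against -0.07, and that of all probe sets was 0.040 after quantile normalization, 0.012 after centring and 0.086 with bright probe sets, against 0.17. Calls depended on the setting. With 2 hnRNP, 5 RBM, 1 related and 897 probe sets of all called as reported, centring gave 0, 2, 0 and 300, the filter on level 10, 12, 11 and 3050, and age as a covariate 15 RBM, 9 related and 2515 of all. Quantile normalization left 1 hnRNP call. Trend and robust options gave 3 related and 1413 of all, leaving out _x_at and _s_at probe sets 0 hnRNP, 0 related and 461, and the probe set of highest mean of each gene 3 related and 1643. That last setting tested neither hnRNP probe set called as reported. Its 2 hnRNP calls, both lower, were Hnrnpd 1425142_a_at and Hnrnpm 1426698_a_at. For Hnrnpab it kept 1426114_at, with a difference of 0.68. Leaving out 1 mouse gave 0 to 10 hnRNP, 0 to 10 RBM and 0 to 14 related calls and 0 to 3840 of all. Leaving out mutant 2 and control 3 gave 0, 0, 0 and 0. The cause was not tested. Of all calls, 561 were higher and 336 lower as reported, and 150 were higher and 150 lower after centring.

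The replicate block gave 0 calls in each family, the related list and all probe sets, with 7935 of all at an unadjusted p under 0.05. Deviations of same-numbered mice correlated at 0.06, -0.50 and -0.56 over all probe sets, so the numbers do not pair the mice. Those of mutant 2 and control 3 correlated at 0.62. A label calls control 1 concurrent with mutant 3, and the deviations of these mice correlated at 0.45, with 0.40 for mutant 3 and control 2.

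Named probe sets whose small difference changed sign, each uncalled, were Hnrnpab 1453849_s_at (-0.091 after centring), Rbm25 1425522_at (-0.072 after quantile normalization, -0.043 after centring) and 1437862_at (-0.14 after centring, -0.044 with age), Rbm39 1439316_at (0.094) and Rbm47 1423411_at (0.0044) after quantile normalization. Without mutant 2 and control 3, Hnrnpk 1448176_a_at was at 0.0275, Rbm25 1437862_at at -0.0685, Rbm26 1426419_at at -0.006 and Rbm39 1442744_at at -0.052. Leaving out 1 mouse, differences of both signs were found at -0.47 to 0.059 for Hnrnpab 1431349_at, -0.062 to 0.25 for Hnrnpab 1453849_s_at, -0.30 to 0.22 for Rbm25 1437862_at, -0.005 to 0.44 for Rbm26 1426419_at, -0.73 to 0.44 for Rbm39 1439316_at, -0.094 to 0.39 for Rbm39 1442744_at, -0.16 to 0.15 for Rbm39 1443988_at and -0.33 to 0.15 for Rbm47 1423411_at.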
